A study of Homo sapiens with 4 samples.

Results

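NEK1, NEK2, NEK3, NEK4, NEK6, NEK7, NEK8 and NEK9 encode NIMA-related kinases, and they were found by gene symbol among the 62700 genes of the count tables. These 8 genes were chosen by name, NEK7 being the kinase of the family that the study mentions, and all 8 had enough counts to be tested. HEK293T, a line of human embryonic kidney cells, was transfected with a plasmid for RPB1, the catalytic large subunit of RNA polymerase II, and poly(A) RNA was then sequenced. The plasmid carried a C-terminal domain (CTD) that was either wild type (WT) or T4A, in which the threonine at the fourth place of the CTD repeats was replaced by alanine, and each group had 2 libraries. In both groups the plasmid also carried a change that makes RPB1 resistant to α-amanitin, and both received α-amanitin at 2.5 µg/ml from day 1 after transfection for 48 hours, which removes the polymerase of the cells themselves. The WT libraries are therefore also transfected and treated with the drug, and no library of unmanipulated cells was analysed here. Transfection was transient, so untransfected cells can be part of each culture.

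NIMA-related kinases are serine/threonine kinases named after a mitotic kinase of Aspergillus, and in animal cells they act mainly on microtubules, at the centrosome, the spindle and the primary cilium. NEK9 is activated at the onset of mitosis and in turn activates NEK6 and NEK7, which help to separate the centrosomes and to build the spindle. NEK2 dissolves the linker that holds the paired centrosomes together, whereas NEK1 and NEK8 are known from cilia and from cystic kidney disease.

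The messages of the family were compared with each other for stretches that reads could not tell apart. In the reference messages (1 MANE Select transcript per gene, from GENCODE), 26 of the 28 pairs of the 8 genes shared no identical run longer than 18 bases. The longest coding run shared by NEK7 and NEK9, and the run shared by NEK2 and NEK7, are shown because they overlap in the same stretch of the kinase coding sequence. Capitals mark the 14 bases that all 3 messages hold:
NEK7 bases 908 to 925 and NEK9 bases 773 to 790: TATTACATGTCTCCagag
NEK2 bases 680 to 696 and NEK7 bases 905 to 921: cctTATTACATGTCTCC
The close relatives NEK6 and NEK7 shared at most 14 identical bases, at bases 953 to 966 of NEK6 and 1061 to 1074 of NEK7:
NEK6 and NEK7: cagtgtgactaccc
The remaining 2 pairs, NEK8 with NEK9 and NEK4 with NEK9, shared runs of 48 and 32 bases.

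AU-rich elements, to which proteins that control mRNA decay bind, were searched for in the 3′ untranslated regions (3′ UTRs) of the same transcripts, on the message strand only. The shortest motif was ATTTA. The longer TATTTAT contains it, and TTATTTATT contains both. The 3′ UTRs of 13384 tested genes served as background, and of these 72.6% held ATTTA, 35.8% held TATTTAT and 9.5% held TTATTTATT. Among the 8 genes, NEK1, NEK2 and NEK7 held TATTTAT, which is close to the 35.8% of all these 3′ UTRs. Their windows of 25 bases are shown, written 5′ to 3′ with T for U and with the longest motif found in capitals:
NEK7 (chromosome 1), 3′ UTR bases 982 to 988: ttactttctTATTTATattgtatgt
NEK7, 3′ UTR bases 2641 to 2647: ttactatgaTATTTATtttaaccaa
NEK2 (chromosome 1), 3′ UTR bases 325 to 331: ggaaaaaaaTATTTATgcaggaaga
NEK1 (chromosome 4), 3′ UTR bases 89 to 97: tacagcaaTTATTTATTtaaaaaat
NEK1, 3′ UTR bases 1254 to 1262: attgtcttTTATTTATTattttact
The NEK7 3′ UTR of 2898 bases held 14 copies of ATTTA, or 4.83 per kilobase, against 2.28 per kilobase over all 13384 3′ UTRs. ATTTA was found 8 times in NEK1 (4.7 per kilobase) and 4 times in NEK2 (6.12 per kilobase). NEK9, with the longest 3′ UTR of the 8 (5211 bases), held 4 copies, or 0.768 per kilobase, and NEK8 held none. NEK4 held 9, NEK6 held 2 and NEK3 held 1. A and T made up 70.2% of the 3′ UTR of NEK7, 68.9% of that of NEK1 and 68.2% of that of NEK2. In the other members the share ran from 45.3% (NEK8) to 61.6% (NEK4). The motif densities were not adjusted for this base composition. These matches describe the letters of the reference transcripts. The counts used here are per gene, so which 3′ end a message had in either group was not measured here. The study itself compared the use of 3′ ends between T4A and WT. It names NEK7 among cell cycle genes that used distal poly(A) sites more in T4A and have predicted AU-rich elements.

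Of the 8 genes, 4 were called lower in T4A than in WT, NEK1, NEK4, NEK7 and NEK9, and none was called higher at an adjusted p under 0.05 by the quasi-likelihood test of edgeR. Among all 18139 genes tested, 13.0% were called lower and 10.7% higher. At an unadjusted p under 0.05, 5 NEK genes were lower and 1 was higher, and the share of all genes at this threshold is not given here. DESeq2 called 4 lower and 0 higher, beside 1577 lower and 1421 higher calls over all genes. Some of the 34497 genes with a DESeq2 p-value, such as NEK5, had no adjusted p and could not be called. The DESeq2 share of all genes is therefore not given here. With limma-voom, 5 NEK genes were called lower and 0 higher, beside 2297 lower and 1990 higher of 18139 genes. The median log2 fold change of the 8 genes was -0.34, beside -0.01 over all genes. Both T4A libraries lay below both WT libraries for 5 of the 8 genes, and this held for 30.5% of all genes tested. The plot of levels by library shows these positions.

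**Figure D1:**
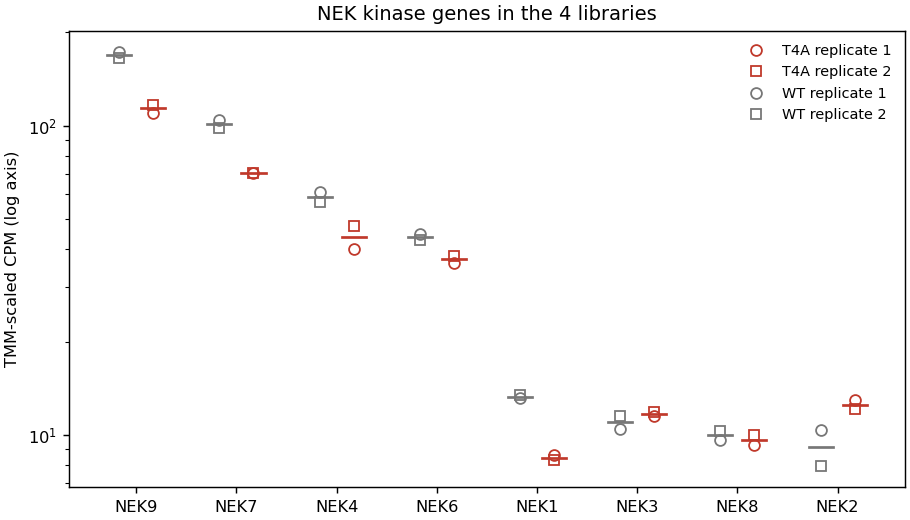
Levels of the 8 NEK genes in each library, in TMM-scaled counts per 1000000 (CPM) on a log axis. Circles are replicate 1, squares are replicate 2, and bars are group means. The T4A points lie below the WT points for NEK9, NEK7, NEK4, NEK6 and NEK1 and above them for NEK2.

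NEK9 (ENSG00000119638.14, minus strand, chr14:75079353-75127202 on GRCh38) is the upstream kinase of the spindle cascade and had the most reads of the family. The T4A libraries gave 2507 and 2196 counts, against 5793 and 4239 for WT. Scaled by TMM-adjusted library size, the levels were 110 and 117 CPM in T4A and 173 and 165 CPM in WT. Both T4A libraries were thus well below both WT libraries. The group means were 114 ± 4.44 and 169 ± 5.11 CPM (SD, n = 2), a difference of 32.9%. The log2 fold change was -0.57 ± 0.05 (SE, edgeR adjusted p = 2.04e-07), with a 95% interval from -0.69 to -0.46.

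NEK7 (ENSG00000151414.15, plus strand, chr1:198156998-198322420 on GRCh38) acts below NEK9 in centrosome separation and spindle assembly, and outside mitosis it is a partner of the inflammasome sensor NLRP3. The counts were 1590 and 1320 in T4A and 3482 and 2514 in WT. The T4A libraries lay close together at 70.1 and 70.2 CPM, and the WT libraries were higher at 104 and 98.1 CPM. NEK7 fell by 0.53 ± 0.06 on the log2 scale (SE, edgeR adjusted p = 4.69e-06, 95% interval of the log2 fold change from -0.66 to -0.39), which is 30.6% lower. The groups were 70.1 ± 0.0799 and 101 ± 4.01 CPM (SD, n = 2), so the difference was larger than the spread within either group.

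NEK6 (ENSG00000119408.17, plus strand, chr9:124257606-124353307 on GRCh38) encodes the close relative of NEK7 that NEK9 also activates. Its counts were 820 and 714 in T4A and 1496 and 1093 in WT, or 36.1 and 38.0 CPM against 44.6 and 42.7 CPM. The groups did not overlap, and the means were 37.0 ± 1.29 and 43.6 ± 1.37 CPM (SD, n = 2). The log2 fold change of -0.24 ± 0.09 was just short of the threshold (edgeR adjusted p = 0.0504, 95% interval from -0.42 to -0.06). NEK6 passed with library totals as the scaling (log2 fold change -0.31, adjusted p = 0.0114), without the filter on low counts, in limma-voom and without T4A replicate 2 (-0.27, adjusted p = 0.0437). Whether NEK6 changed less than NEK7 or NEK9 was not tested. The ratio of NEK7 to NEK6 counts was 1.94 and 1.85 in T4A and 2.33 and 2.30 in WT.

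NEK2 (ENSG00000117650.13, minus strand, chr1:211658256-211675621 on GRCh38), whose message is known to peak in the G2 phase, was the member with the highest log2 fold change. The T4A libraries had 295 and 227 counts and the WT libraries 350 and 203, which came to 13.0 and 12.1 CPM against 10.4 and 7.93 CPM. Both T4A libraries were above both WT libraries, but the WT libraries differed from each other (9.18 ± 1.77 CPM, beside 12.5 ± 0.658 CPM in T4A, SD, n = 2). The log2 fold change was 0.44 ± 0.17 (edgeR adjusted p = 0.0591, 95% interval from 0.10 to 0.79), so NEK2 was not called. This value depended on which WT library was used. Without WT replicate 1 the log2 fold change was 0.67 (adjusted p = 0.0299), without WT replicate 2 it was 0.26 (adjusted p = 0.533), and without T4A replicate 2 it was 0.49 (adjusted p = 0.0288). NEK2 was also called with upper quartile scaling (0.53, adjusted p = 0.025), with a filter at a mean of 1 CPM (0.45, adjusted p = 0.0483) and with the replicate number as a block (0.45, adjusted p = 0.0382).

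NEK1 (ENSG00000137601.18, minus strand, chr4:169392809-169612583 on GRCh38) works at the cilium and in the response to DNA damage, and it had the lowest log2 fold change of the 8. Its counts were 195 and 156 in T4A and 442 and 346 in WT. The levels were 8.59 and 8.29 CPM in T4A and 13.2 and 13.5 CPM in WT, with no overlap. The means of 8.44 ± 0.211 and 13.3 ± 0.233 CPM (SD, n = 2) differed by 36.7%. This gave a log2 fold change of -0.66 ± 0.15 (edgeR adjusted p = 0.0031, 95% interval from -0.98 to -0.34).

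NEK4 (ENSG00000114904.13, minus strand, chr3:52708444-52770940 on GRCh38), a kinase linked to ciliary proteins and to the DNA-dependent protein kinase, was also lower. The counts were 905 and 892 in T4A and 2053 and 1446 in WT, and the levels were 39.9 and 47.4 CPM against 61.2 and 56.5 CPM. The T4A libraries lay below the WT libraries but were further apart than for NEK7 or NEK9 (43.6 ± 5.33 and 58.8 ± 3.36 CPM, SD, n = 2). The log2 fold change was -0.43 ± 0.09 (edgeR adjusted p = 0.00119, 95% interval from -0.62 to -0.25). It ran from -0.56 without T4A replicate 2 to -0.31 without T4A replicate 1, and the gene was called in both cases. NEK4 shares 2705 of its exonic bases (42.3%) with SPCS1, a signal peptidase subunit gene on the opposite strand, and where counting does not use strand, reads of the pair cannot be told apart there. Alignment was without strand, and the strand setting of the counting is not given. SPCS1 itself rose, with a log2 fold change of 0.28 ± 0.06 (edgeR adjusted p = 0.00159).

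NEK8 (ENSG00000160602.14, plus strand, chr17:28728788-28743455 on GRCh38), the kinase of the inversin compartment of the cilium, showed no detectable difference. Its counts were 211 and 189 in T4A and 324 and 265 in WT, or 9.30 and 10.0 CPM against 9.66 and 10.3 CPM, and the groups overlapped. The log2 fold change was -0.05 ± 0.16 (edgeR adjusted p = 0.883, 95% interval from -0.39 to 0.29). This interval includes values as large as the change of NEK6. Its sign turned with upper quartile scaling (0.04) and without T4A replicate 1 (0.01).

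NEK3 (ENSG00000136098.18, minus strand, chr13:52132647-52159860 on GRCh38), a kinase of prolactin receptor signalling, did not pass the test either. The counts were 261 and 223 in T4A and 351 and 294 in WT. The levels of 11.5 and 11.9 CPM in T4A and 10.5 and 11.5 CPM in WT nearly touched. A log2 fold change of 0.09 ± 0.15 was estimated (edgeR adjusted p = 0.739, 95% interval from -0.22 to 0.40).

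**Figure D2:**
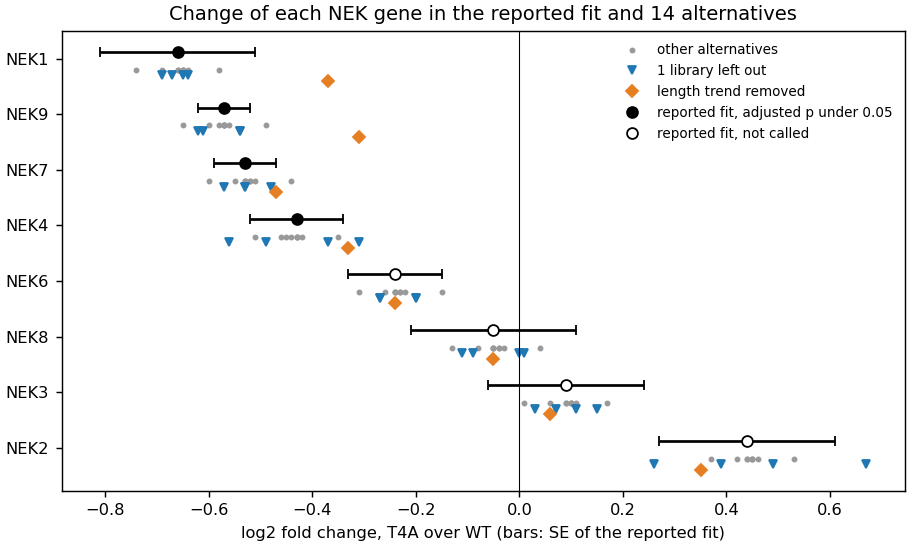
Log2 fold change of T4A over WT for each NEK gene. Black circles with bars are the reported values with their SE, filled where the adjusted p was under 0.05, blue triangles leave out 1 library each, orange diamonds have the trend with exonic length removed, and grey points are the other alternatives. NEK9 and NEK7 stay left of 0 throughout, from -0.65 to -0.31 and from -0.60 to -0.44. So do NEK1, NEK4 and NEK6, whereas NEK8 lies on both sides.

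Across the 14 alternative analyses the log2 fold change of NEK7 lay between -0.60 and -0.44 and that of NEK9 between -0.65 and -0.31, and both genes were called in each. NEK1 was called in all but the one that removed the trend with exonic length (log2 fold change -0.37, adjusted p = 0.103), and NEK4 in all but the test against a fold of 1.2 (-0.43, adjusted p = 0.0865).

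Exonic length, the number of bases in the union of annotated exons, moved with the fold changes over all genes. The 18047 genes with a length were divided into 4 groups of nearly equal number. In the shortest group (53 to 2371 bases) the median log2 fold change was 0.23, with 1.64% called lower, and in the longest group (7344 to 347778 bases) it was -0.24, with 30.5% called lower. NEK1 (16336 bases) and NEK9 (13327 bases) are in the longest group. NEK4 (6393 bases) and NEK7 (5454 bases) are in the group from 4482 to 7343 bases, where the median was -0.07 and 15.3% were called lower. NEK2, NEK3, NEK6 and NEK8, the members that were not called, are in the group from 2372 to 4481 bases, where the median was 0.09 and 4.41% were called lower. With the length trend removed, the log2 fold change of NEK9 was -0.31 (adjusted p = 0.000386) and that of NEK7 was -0.47 (adjusted p = 2.8e-05). The part of length in the values of single genes was not tested beyond this.

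**Figure D3:**
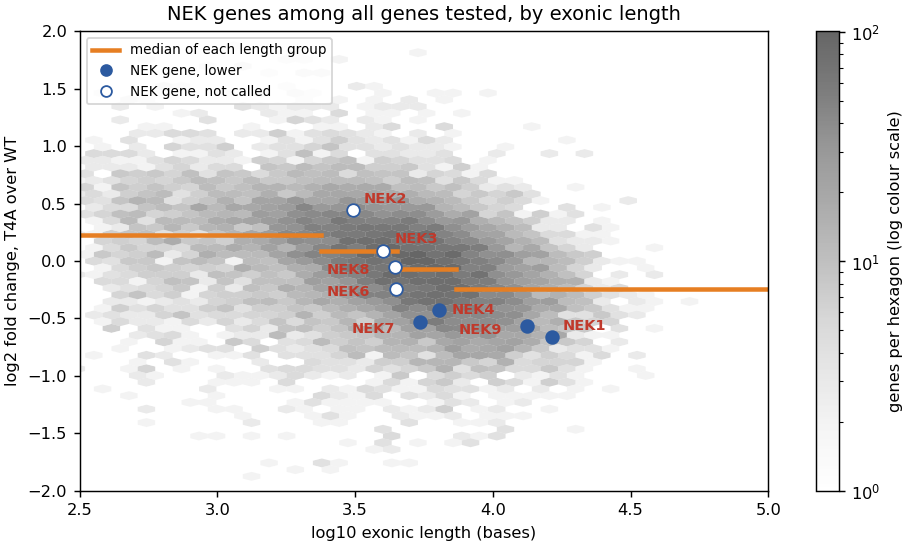
Log2 fold change of T4A over WT against log10 exonic length in bases for the genes tested, with the grey shade giving genes per hexagon on a log scale. Of the 18047 genes with a length, 443 are outside the axes. Orange lines are the medians of the 4 length groups, from 0.23 for the shortest to -0.24 for the longest, and the filled NEK points (NEK1, NEK4, NEK7 and NEK9, called lower) are at longer lengths than the open ones.

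Levels were compared between genes per kilobase of exonic length. In WT, NEK7 was highest at 18.5 ± 0.735 CPM per kilobase (SD, n = 2), followed by NEK9 at 12.7 ± 0.383, NEK6 at 9.84 ± 0.308 and NEK4 at 9.20 ± 0.526 CPM per kilobase. The lower-expressed members were NEK2 at 2.97 ± 0.573, NEK3 at 2.74 ± 0.179, NEK8 at 2.27 ± 0.11 and NEK1 at 0.817 ± 0.0143 CPM per kilobase. NEK2 and NEK3 overlapped between the WT libraries, NEK6 and NEK4 were only just apart, and the other neighbours in this order were separate. T4A had the same order, from NEK7 at 12.9 ± 0.0147 CPM per kilobase over NEK9 at 8.52 ± 0.333, NEK6 at 8.36 ± 0.291 and NEK4 at 6.83 ± 0.834 CPM per kilobase to NEK1 at 0.517 ± 0.0129 CPM per kilobase. There NEK9 and NEK6 overlapped. Over the length of the MANE Select transcript alone, NEK3 came before NEK2 in WT, at 5.16 ± 0.337 and 4.30 ± 0.832 CPM per kilobase. On that length NEK9 and NEK6 were separate in T4A, at 13.3 and 14.1 against 10.4 and 10.9 CPM per kilobase. NEK1 was then at 2.19 ± 0.0382 CPM per kilobase in WT, beside NEK8 at 2.80 ± 0.136.

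As a share of each library, the 8 genes together took 0.0289% and 0.0307% of the counts in T4A and 0.0432% and 0.0421% in WT. Within the family, NEK9 gave 37.0% and 37.1% of the NEK counts in T4A and 40.5% and 40.8% in WT, whereas NEK2 gave 4.35% and 3.84% in T4A and 2.45% and 1.95% in WT. All levels are shares of a library, so less of a message per cell and fewer cells that make it cannot be told apart. The count of POLR2A, the gene for RPB1, which includes reads from the plasmid, was 0.52% and 0.535% of the T4A libraries and 0.383% and 0.287% of the WT libraries. POLR2A was called higher in T4A, with a log2 fold change of 0.73 ± 0.08 (edgeR adjusted p = 7.23e-07). The groups thus differ in this RNA as well as in the CTD, and its part in the NEK values was not tested. For the protein, the study reports similar levels of T4A and WT RPB1.

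Library totals were 23465029 and 19257217 counts for T4A and 33063535 and 24695291 for WT, and the replicates of each group differed by more than sampling noise. The 6 markers of HEK293 cells were detected in all libraries, and 3 of them were called, VIM (log2 fold change 0.20, adjusted p = 0.00232) and KRT8 (0.56, adjusted p = 0.00112) higher and NEFL (-0.17, adjusted p = 0.0299) lower. PAX2 (-0.45), NEFM (-0.21) and KRT18 (0.48) were not called. COL1A2 of fibroblasts and KRT5 of keratinocytes had 0 counts in every library and PTPRC of blood cells had at most 2. ALB of hepatocytes had 10 to 36 counts and ACTA2 of muscle 95 to 147, and neither was called. PECAM1 of endothelium was not found by symbol. The study calls the RNA-seq duplicates biological replicates, but whether they were grown as separate cultures is not in the labels. The p-values cover only differences among these libraries, which may be technical. With 2 libraries on each side the smallest exact permutation p is 0.333, and the tests therefore rest on a spread shared across genes.

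Other family genes had few counts. NEK5 had 12 to 23 counts per library, NEK10 had 45 to 92 and NEK11 had 27 to 48, and their groups overlapped. None was called by edgeR or limma-voom, nor at an unadjusted p under 0.05, and DESeq2 gave them no adjusted p. The edgeR fit gave log2 fold changes of 0.26 ± 0.63 (adjusted p = 0.832), 0.09 ± 0.35 (adjusted p = 0.901) and -0.28 ± 0.44 (adjusted p = 0.728). Without T4A replicate 1 the value of NEK5 was -0.08, and without WT replicate 2 that of NEK10 was -0.19. Pseudogenes of NEK2 had at most 2 counts and those of NEK4 at most 5 in any library. On the other strand, NEK9 shares 1018 exonic bases (7.64%) with ZC2HC1C, which had 8 to 44 counts. NEK8 shares 100 bases (2.27%) with TLCD1, which had 119 to 181 counts beside the 189 to 324 of NEK8, and 729 bases (16.5%) with the lncRNA ENSG00000265073, which had 0 to 4 counts.

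Genes that work with the NEK kinases were examined next, from 7 lists with 84 different genes, of which 76 were tested, 24 were called lower and 8 higher. With a list of mitotic kinases outside the family, added for comparison, there were 100 genes, of which 92 were tested, 27 were called lower and 8 higher, beside the 13.0% and 10.7% of all genes. Over all genes tested, upper quartile scaling gave 1718 lower and 2690 higher calls, and removal of the length trend gave 1438 and 1932. The test against a fold of 1.2 gave 980 and 596. In the lists, the 27 and 8 became 17 and 16, 11 and 15, and 9 and 2 in the same order. With the length trend removed, higher calls thus outnumbered lower ones over all genes and likewise among the listed genes. Without WT replicate 1 the number called lower was 16, and without WT replicate 2 the number called higher was 5. Among 21 direct binding partners or substrates, 7 were called lower, 2 higher and 11 were not called, and 1 was below the filter. The edgeR counts of each list below are to be read beside the same 13.0% and 10.7%. For limma-voom the background was 2297 lower and 1990 higher of 18139 genes, and for DESeq2 it was 1577 lower and 1421 higher calls. For list counts at an unadjusted p under 0.05, the share of all genes is not given here.

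Among genes of the NEK9, NEK6 and NEK7 spindle pathway, 8 of 23 were called lower and 3 higher, with a median log2 fold change of -0.05. DYNLL1, the dynein light chain that binds NEK9, had levels of 288 and 274 CPM in T4A and 213 CPM in both WT libraries, a log2 fold change of 0.40 ± 0.05 (edgeR adjusted p = 1.77e-06). NUP98, a nucleoporin that NEK6 phosphorylates when nuclear pores come apart, had 13.0 and 14.5 CPM in T4A and 23.0 and 22.9 CPM in WT, a log2 fold change of -0.74 ± 0.12 (edgeR adjusted p = 8.3e-05). EML4, a microtubule-binding protein and NEK7 substrate, was at 20.5 and 22.8 CPM against 29.8 and 28.5 CPM, with a log2 fold change of -0.43 ± 0.10 (edgeR adjusted p = 0.00356). Neither the kinases that act on NEK9, CDK1 (0.10, adjusted p = 0.529) and PLK1 (0.39 ± 0.15, adjusted p = 0.0598), nor the kinesin KIF11 (-0.20, adjusted p = 0.269) or the dynein adaptor BICD2 (-0.19 ± 0.08, adjusted p = 0.102) were called. PLK1 was called with the replicate block (0.40, adjusted p = 0.0482), with the filter at 1 CPM (0.40, adjusted p = 0.0469) and with upper quartile scaling (0.47, adjusted p = 0.0223), and BICD2 with library totals (-0.26, adjusted p = 0.023). With the length trend removed, EML4 was at -0.25 and not called (adjusted p = 0.101), whereas NUP98 was at -0.48 (adjusted p = 0.00628). EML4 was not called against a fold of 1.2 either (adjusted p = 0.123). CDK1 was at -0.02 without WT replicate 1. SUPT16H, a subunit of the histone chaperone FACT, fell by 0.45 on the log2 scale (adjusted p = 9.7e-07). BICD1, a dynein adaptor singled out after its values were seen as the lowest of this list, was at 3.08 and 3.40 CPM in T4A and 8.47 and 6.87 CPM in WT, with a log2 fold change of -1.25 ± 0.23 (adjusted p = 0.000363).

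The inflammasome partners of NEK7 were nearly silent. All 6 genes of that list, among them NLRP3 with 0 counts in both T4A libraries and 1 and 3 in WT, were below the filter and were not tested.

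Around NEK2, in the list of centrosome linker and kinetochore genes, 4 of 18 tested genes were called lower and 3 higher, with a median of -0.09. The linker proteins rootletin (CROCC, log2 fold change 0.30, adjusted p = 0.179) and C-Nap1 (CEP250, -0.18, adjusted p = 0.403), which NEK2 phosphorylates, were not called. Without T4A replicate 1 both were called, CROCC at 0.45 (adjusted p = 0.0335) and CEP250 at -0.47 (adjusted p = 0.017), and without T4A replicate 2 CEP250 was at 0.04. The kinetochore protein NDC80 (0.15, adjusted p = 0.755) and FZR1, an activator of the anaphase-promoting complex (0.31, adjusted p = 0.162), were not called either, but FZR1 was without T4A replicate 1 (0.45, adjusted p = 0.0303). PPP1CA, the phosphatase catalytic subunit that opposes NEK2, rose by 0.33 (adjusted p = 6.6e-05) on the log2 scale, from 173 to 217 CPM. The linker gene LRRC45 rose by 0.33 as well (adjusted p = 0.0021), whereas CEP135, a centriole protein, fell by 0.55 (adjusted p = 0.0013). With the length trend removed, CEP135 was at -0.31 and not called (adjusted p = 0.0676), CEP250 was at 0.13 and CROCC was called at 0.49 (adjusted p = 0.0268). PPP1CA and LRRC45 were not called against a fold of 1.2 (adjusted p = 0.197 and 0.317).

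Of the cilium genes around NEK8, 4 of 13 were called lower and 0 higher by edgeR, DESeq2 and limma-voom, with 4 lower and 1 higher at an unadjusted p under 0.05. Inversin (INVS), which anchors NEK8 in the cilium, was at 5.99 and 5.21 CPM in T4A and 10.8 and 8.86 CPM in WT, a log2 fold change of -0.81 ± 0.19 (edgeR adjusted p = 0.00365). Without WT replicate 1 it was -0.65 and not called (adjusted p = 0.0991). ANKS6, another protein of its compartment (-0.13, adjusted p = 0.293), was not called. PKD2 (-0.78, adjusted p = 0.000157) and PKD1 (-0.33, adjusted p = 0.00356), the polycystin genes, and HIF1AN (-0.57, adjusted p = 0.000254), an asparagine hydroxylase, were lower. PKD1 was at -0.02 (adjusted p = 0.884) with the length trend removed and was not called against a fold of 1.2 (adjusted p = 0.329), and HIF1AN was at -0.30 (adjusted p = 0.0426) with the length trend removed.

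NEK1 partners went both ways. ATR, the checkpoint kinase whose work NEK1 supports, was at 9.91 and 10.0 CPM in T4A and 16.6 and 16.0 CPM in WT, a log2 fold change of -0.71 ± 0.14 (edgeR adjusted p = 0.000665). CFAP410, a cilium protein that binds NEK1, was at 13.7 and 13.8 CPM against 10.4 and 9.80 CPM, or 0.44 ± 0.14 (edgeR adjusted p = 0.0325). The call of CFAP410 was lost in 7 of 14 alternatives, among them leaving out T4A replicate 2 (0.43, adjusted p = 0.0502), WT replicate 1 (0.49, adjusted p = 0.113) and WT replicate 2 (0.39, adjusted p = 0.238). In the whole list of 10 genes 3 were called lower and 1 higher, with a median of -0.20. The others called were the nuclease gene MRE11 (-0.33, adjusted p = 0.00994), which lost its call without T4A replicate 1 (-0.22, adjusted p = 0.103) and without WT replicate 1 (-0.29, adjusted p = 0.0771), and TSC2 (-0.21, adjusted p = 0.00564), which lost it without T4A replicate 2 (-0.16, adjusted p = 0.0513) and without WT replicate 1 (-0.14, adjusted p = 0.125). Removing the length trend left ATR at -0.37 (adjusted p = 0.0735), MRE11 at -0.17 (adjusted p = 0.215) and TSC2 at 0.11 (adjusted p = 0.181), and none of these was then called.

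PRKDC, the catalytic subunit of the DNA-dependent protein kinase and a NEK4 partner, had the smallest p of the listed genes. It was at 284 and 294 CPM in T4A and 488 and 510 CPM in WT, a log2 fold change of -0.79 ± 0.04 (edgeR adjusted p = 9.47e-11). The Ku subunits of the same complex differed in sign, XRCC6 at 0.15 (adjusted p = 0.000576) and XRCC5 at -0.15 (adjusted p = 0.0166), and XRCC5 was not called without WT replicate 1 (-0.08, adjusted p = 0.371). RPGRIP1L, a protein of the ciliary transition zone, was at -0.54 ± 0.19 (adjusted p = 0.0446) and lost its call in 10 of 14 alternatives, including those without T4A replicate 2 (-0.50, adjusted p = 0.0802), WT replicate 1 (-0.50, adjusted p = 0.256) and WT replicate 2 (-0.57, adjusted p = 0.155). After removal of the length trend PRKDC was at -0.44 and still called (adjusted p = 2.57e-07), whereas RPGRIP1L (-0.26, adjusted p = 0.391), XRCC5 (-0.09, adjusted p = 0.178) and XRCC6 (0.07, adjusted p = 0.104) were not. XRCC5 was not called with upper quartile scaling (-0.06, adjusted p = 0.342), nor XRCC6 with library totals (0.07, adjusted p = 0.0526). Of the 7 NEK4 partners 3 were called lower and 1 higher (median -0.15).

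In the prolactin signalling list of NEK3, 2 of 5 tested genes were called lower and 0 higher by edgeR and limma-voom and at an unadjusted p under 0.05, and DESeq2 called 1 lower and 0 higher. The median was 0.08. VAV2, a guanine nucleotide exchange factor that NEK3 binds, was not called (0.22, adjusted p = 0.437). Its value depended on the T4A libraries, with 0.51 (adjusted p = 0.0168) without replicate 1 and -0.12 (adjusted p = 0.726) without replicate 2. Paxillin (PXN, -0.26 ± 0.09, adjusted p = 0.0496) lost its call in 8 of 14 alternatives, including those without T4A replicate 1 (-0.19, adjusted p = 0.271), WT replicate 1 (-0.24, adjusted p = 0.266) and WT replicate 2 (-0.29, adjusted p = 0.151). The deacetylase gene HDAC6 (-0.24, adjusted p = 0.0168) lost it without T4A replicate 2 (-0.19, adjusted p = 0.0912) and without WT replicate 1 (-0.20, adjusted p = 0.184). Neither PXN (-0.11, adjusted p = 0.49) nor HDAC6 (0.04, adjusted p = 0.783) was called with the length trend removed. The prolactin receptor gene PRLR had at most 1 count per library.

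Mitotic kinases outside the family served for comparison. Of 19 such genes 3 were called lower and 0 higher, beside 13.0% and 10.7% of all genes tested, and the median was 0.07. At an unadjusted p under 0.05, 5 were lower and 2 higher. DESeq2 called 1 lower and 0 higher, and limma-voom called 3 lower and 0 higher. The called genes were BUB1B (-0.49, adjusted p = 0.0424), of the spindle checkpoint, CIT (-0.49, adjusted p = 0.00178), of cytokinesis, and LATS1 (-0.62, adjusted p = 0.0133), of the Hippo pathway. None of these 3 calls held in every alternative. BUB1B was lost without T4A replicate 1 (-0.37, adjusted p = 0.16), WT replicate 1 (-0.59, adjusted p = 0.0793) and WT replicate 2 (-0.39, adjusted p = 0.339), CIT without WT replicate 2 (-0.40, adjusted p = 0.0535), and LATS1 without WT replicate 1 (-0.40, adjusted p = 0.324). With the length trend removed, CIT was at -0.14 (adjusted p = 0.433), LATS1 at -0.43 (adjusted p = 0.0997) and BUB1B at -0.49 (adjusted p = 0.0504).

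**Figure D4:**
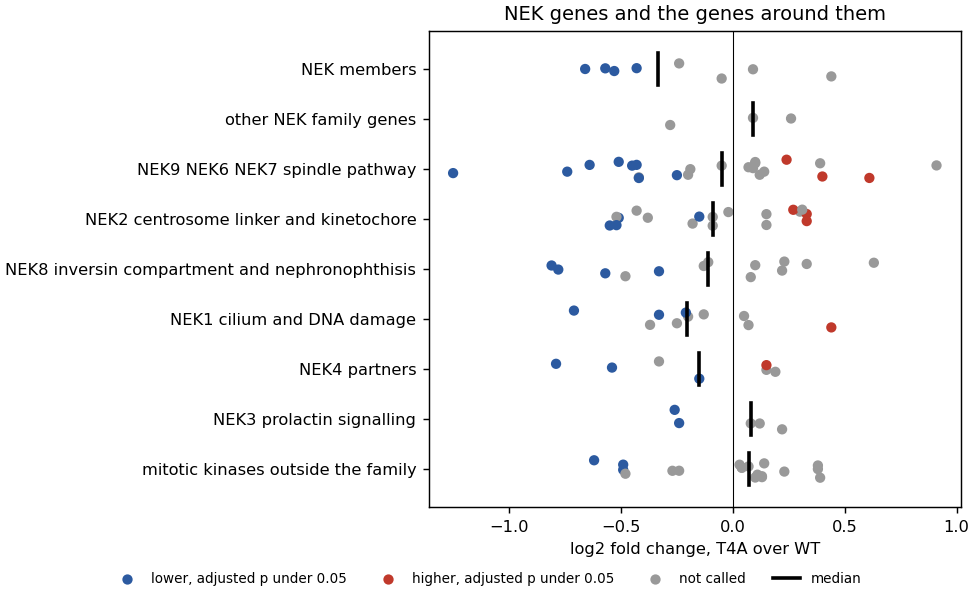
Log2 fold change of T4A over WT for each tested gene of the NEK family and of the lists around it. Blue points were called lower, red points higher and grey points were not called at an adjusted p of 0.05, and black bars are list medians. The median of the 8 members is -0.34, while the medians of the lists of partners lie between -0.20 and 0.08.

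The genes whose pattern over the 4 libraries was most like that of NEK7 were named by the distance between centred log2 CPM values, among 2264 genes with a mean level within 1 log2 unit of NEK7. They were DNAJC10, an endoplasmic reticulum disulfide reductase (distance 0.0155), WASF2, a regulator of actin branching (distance 0.0287), and EIF4G3, a translation initiation factor (distance 0.0292). Their log2 fold changes were -0.53 ± 0.06, -0.54 ± 0.07 and -0.53 ± 0.07. With the length trend removed, DNAJC10 was at -0.20 (adjusted p = 0.0249) and EIF4G3 at -0.28 (adjusted p = 0.00612). This likeness describes 4 libraries, and with 2 per group it mostly restates the size of the change.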

How the data were processed

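The 4 poly(A) RNA libraries of HEK293T cells, 2 with T4A and 2 with WT RPB1, were made with the NEBNext Ultra kit. The submitters' processing notes name build hg38 and Trimmomatic 0.38, HISAT2 2.2.1 and featureCounts 2.0.1, and the study's methods state alignment without strand. The authors deposited 1 table of raw gene counts per library, not normalized and not pooled. The treatment of fragments with several possible places is not given in any of the sources used here.

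The filterByExpr function kept 18139 genes, and these were compared in edgeR 4.0.16 (R 4.3.3) with TMM scaling and the quasi-likelihood test (glmQLFit and glmQLFTest), with p-values adjusted over all of them by Benjamini and Hochberg. Genes were called at an adjusted p under 0.05. SEs were derived from the fold change and its F statistic, and 95% intervals use the t distribution with 19 degrees of freedom. Levels are TMM-scaled counts per 1000000 (CPM), as mean ± SD of 2 libraries. The common biological coefficient of variation was 0.114. The depth of each library, given with the results, sets the counting error, which for NEK5, NEK10 and NEK11 is large. The code was tested on simulated counts with known changes.

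Symbols, exonic lengths, overlaps and transcript sequences come from GENCODE 44 in its version for an older build (60877 of 62700 identifiers matched, 1025 without the same version), and coordinates from RefSeq on GRCh38.p14. The 8 members and all lists were chosen with earlier results of these data known. Named genes are the members, the other family genes, direct partners, up to 3 called genes with the smallest p per list, POLR2A and the 3 genes most like NEK7, and 1 direct partner is not reported here. BICD1, SPCS1 and the marker genes are named besides.

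Alternatives were the size factors of DESeq2, upper quartile scaling, library totals, no filter, a filter at a mean of 1 CPM, limma-voom (limma 3.58.1), DESeq2 1.42.0, the replicate number as a block, a test against a fold of 1.2, removal of the trend with exonic length, and each library left out. In the last case the lone library of a group is assumed to vary like the other group.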

Additional observations from a re-analysis of the deposited data

How the results depend on the processing

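NEK7 and NEK9 were called lower in all 14 alternatives. Members called lower numbered 3 to 5, and 4 to 5 with 1 library left out. Members called higher numbered 1 instead of 0, by NEK2, with upper quartile scaling, with a filter at a mean of 1 CPM and with the replicate block, and 0 to 1 with 1 library left out (1 without T4A replicate 2 or WT replicate 1). NEK2 was at 0.53 with upper quartile scaling, 0.45 with the filter at 1 CPM, 0.45 with the replicate block, and 0.26 to 0.67 with 1 library left out. NEK6 passed at -0.31 with library totals, -0.26 without a filter and -0.24 in limma-voom, and ranged from -0.27 to -0.20 with 1 library left out. NEK1 missed the threshold at -0.37 with the length trend removed, and NEK4 at -0.43 against a fold of 1.2. NEK8 turned to 0.04 with upper quartile scaling, and ranged from -0.11 to 0.01 with 1 library left out. The cause was not tested.

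The deviations of same-numbered libraries showed no correlation across genes (-0.0038). Whether libraries of the same number belong together is not in the labels, and this value alone cannot decide it. Among the members and other named genes the replicate block changed the calls of NEK2 and PLK1 only. Over all genes, 2351 lower and 1935 higher calls became 980 and 596 against a fold of 1.2, which asks for more by construction, 1438 lower with the length trend removed, and 1583 to 2545 lower with 1 library left out. Calls were lower in 54.9% of cases, in 39.0% with upper quartile scaling, 68.8% with library totals and 42.7% with the length trend removed. The median of all genes moved by less than 0.1 under every scaling. Listed genes called lower (27) numbered 17 with upper quartile scaling, 9 against a fold of 1.2, 11 with the length trend removed and 16 to 26 with 1 library left out. Listed genes called higher (8) numbered 16 with upper quartile scaling, 4 with library totals, 5 without a filter, 5 in DESeq2, 2 against a fold of 1.2, 15 with the length trend removed and 5 to 10 with 1 library left out.

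Over the other 43 named genes, 508 of 598 values kept direction and call, 70 lost the call, 11 gained it and 9 changed sign. With the length trend removed, CEP250 was at 0.13, ANKS6 at 0.06, TSC2 at 0.11 and HDAC6 at 0.04. With 1 library left out, values ranged from -0.47 to 0.04 for CEP250 (lowest without T4A replicate 1, highest without T4A replicate 2), from -0.12 to 0.51 for VAV2 (lowest without T4A replicate 2), from -0.02 to 0.22 for CDK1 (lowest without WT replicate 1), from -0.08 to 0.52 for NEK5 (lowest without T4A replicate 1) and from -0.19 to 0.46 for NEK10 (lowest without WT replicate 2). NEK3 and NEK8 had 189 to 351 counts per library and SEs of 0.15 and 0.16. At this depth and with 2 libraries per group, changes well above these SEs could be missed. In the reported fit NEK2, with an SE of 0.17, was not called at 0.44.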
